A study of Mus musculus with 17 samples.

Results

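The 9 genes Sox2, Nes, Hopx, Eomes, Sox4, Sox11, Dcx, Igfbpl1 and Stmn1 mark the steps from neural stem cell to newborn neuron. All probe sets annotated with 1 of these symbols alone were taken, which gave 30 of the 45037 mouse probe sets tested and 9 of 18193 genes. Their levels were compared between dentate gyrus of Foxo1/3/4 knockout (KO) and wild-type (WT) mice, array by array, in the 15 arrays that carry no further mark and in the 2 that carry the mark CA13. In KO mice, floxed Foxo1, Foxo3 and Foxo4 had been deleted with a human GFAP-cre transgene, which acts in common progenitors and so removes the genes from both neurons and glia. The unmarked arrays were 8 KO and 7 WT samples, and 1 KO sample and 1 WT sample, with the marks 433 and 437, carry CA13, which the sources do not explain. The labels name brain as the tissue, and the laser-captured dentate gyrus comes from the study's methods. Neither the labels nor the methods give an age or a sex for these arrays. They also do not state outright that each sample is a separate animal, so the p-values rest on the spread from array to array, part of which may be technical.

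New granule neurons arise in the adult dentate gyrus from radial glia-like stem cells in the subgranular zone, which express Sox2, Nestin and Hopx. These give rise to intermediate progenitors marked by Eomes (Tbr2), and then to neuroblasts and immature neurons that express the SoxC transcription factors Sox4 and Sox11, the microtubule protein doublecortin (Dcx) and Igfbpl1. FOXO transcription factors are known to keep adult neural stem cells quiescent in mice. Cells of these early steps are few beside the mature granule neurons. In RNA from captured tissue, fewer cells of a type and less RNA per cell cannot be told apart.

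The start sites of Eomes, Sox11 and Dcx, 3 genes described at length below, are shown here because the mice lack transcription factors that bind a short DNA motif. Each sequence holds the 250 bases before and the 50 bases from a start site (RefSeq, GRCm38.p6), with the first transcribed base in capitals.
Eomes chr9:118477939-118478238 (+): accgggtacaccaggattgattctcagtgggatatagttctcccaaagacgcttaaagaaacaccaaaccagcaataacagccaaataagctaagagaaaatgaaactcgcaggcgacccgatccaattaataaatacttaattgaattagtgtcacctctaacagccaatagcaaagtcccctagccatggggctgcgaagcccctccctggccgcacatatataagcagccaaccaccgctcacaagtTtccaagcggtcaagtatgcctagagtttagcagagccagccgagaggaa
Sox11 chr12:27342669-27342968 (-): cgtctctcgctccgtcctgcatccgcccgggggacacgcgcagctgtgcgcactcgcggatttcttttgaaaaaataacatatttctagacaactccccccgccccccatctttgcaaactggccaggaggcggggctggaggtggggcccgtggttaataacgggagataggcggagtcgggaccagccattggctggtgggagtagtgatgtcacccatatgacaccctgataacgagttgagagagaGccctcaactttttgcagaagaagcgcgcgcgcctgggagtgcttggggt
Dcx chrX:143933170-143933469 (-): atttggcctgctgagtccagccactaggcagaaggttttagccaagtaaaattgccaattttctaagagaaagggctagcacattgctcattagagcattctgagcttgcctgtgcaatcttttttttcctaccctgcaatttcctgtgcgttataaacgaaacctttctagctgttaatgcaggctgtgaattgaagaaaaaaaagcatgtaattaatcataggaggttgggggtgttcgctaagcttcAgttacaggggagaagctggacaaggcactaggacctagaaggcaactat
The motif bound by forkhead factors, GTAAACA, was searched in 9 such windows of 7 of the genes on both strands, with TGTTTAC as its reverse. It was found in 0 of the 9 windows and in 3.65% of the 32851 windows of all mouse genes. The core bound by SOX proteins, AACAAT or ATTGTT, was found in 1 of the 9 windows, the second start site of Hopx, and in 10.7% of all windows. Igfbpl1 and Stmn1 were not among the windows searched. Sox2 and Nes lie on chromosome 3, Igfbpl1 and Stmn1 on 4, Hopx on 5 and Sox4 on 13.

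Foxo1, 1 of the 3 deleted genes, separated the unmarked KO and WT arrays. Its signal, in the arbitrary brightness units of the deposited table, was 121 to 658 in the 8 KO samples and 4970 to 19074 in the 7 WT samples. The median brightness of an array lay between 88.1 and 112 for WT and between 92.6 and 117 for KO. The log2 ratio of the Gapdh probe sets at the 3' and the 5' end, a measure of RNA quality, was 5.11 to 6.23 in WT and 5.04 to 6.41 in KO. The 3' end was thus far brighter than the 5' end on every unmarked array. Both CA13-marked arrays and the tissue of 1 unmarked array bear on what follows. Dentate granule neuron markers had a mean level of 11.10 to 11.48 on the log2(signal + 32) scale in all unmarked arrays but 1, and CA pyramidal neuron markers one of 8.40 to 8.98. The library labelled 433 among the unmarked KO arrays stood apart, with 8.30 for granule and 10.75 for CA markers. The CA13-marked WT array of 437 had the same profile, with 8.40 and 10.78. The CA13-marked KO array of 433 had granule markers at 11.27 and CA markers at 8.39. The labels were kept as given, so that 1 of the 8 unmarked KO arrays lacked the granule profile. Whether the 2 libraries of 433 carry each other's labels cannot be told from the sources, and the main KO-WT values below are also given without the library labelled 433.

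No probe set of the 9 genes changed between KO and WT after adjustment for all probe sets. Of the 30 probe sets, 0 were higher and 0 were lower in KO at an adjusted p under 0.05 (limma with Benjamini-Hochberg adjustment), against 0.00666% of all probe sets in each direction. At an unadjusted p under 0.05, 1 of 30 was lower and 0 were higher in KO. Over all probe sets 1.68% were lower and 1.54% were higher at this p. KO and WT did not overlap for 0 of the 30 probe sets, against 0.02% of all probe sets with KO below WT and 0.00888% with KO above. The direction was mostly downward. The log2 fold change, KO minus WT, was negative for 25 of 30 probe sets and for 49.5% of all probe sets. Its median was -0.12 over the 30 probe sets and 0 over all. With the brightest probe set of each gene, 8 of the 9 genes had a negative value and their median was -0.18, against 47.6% and a median of 0.01 over 18193 genes. That median of the 9 was -0.16 without the library labelled 433, -0.05 with the CA13-marked array of 433 in its place and -0.30 with the most variable probe set of each gene. Without the library labelled 433, 25 of 30 were again negative, against 49.8% of all probe sets, and the median was -0.13, against 0. In that setting 2 of 30 were lower and 0 higher at an unadjusted p under 0.05, against 1.76% and 1.73% of all, and 0 passed after adjustment. Probe sets of 1 gene are not separate observations, and some of the genes were correlated across arrays, as described below. The 9 genes were also chosen with earlier results of these data known.

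**Figure D1:**
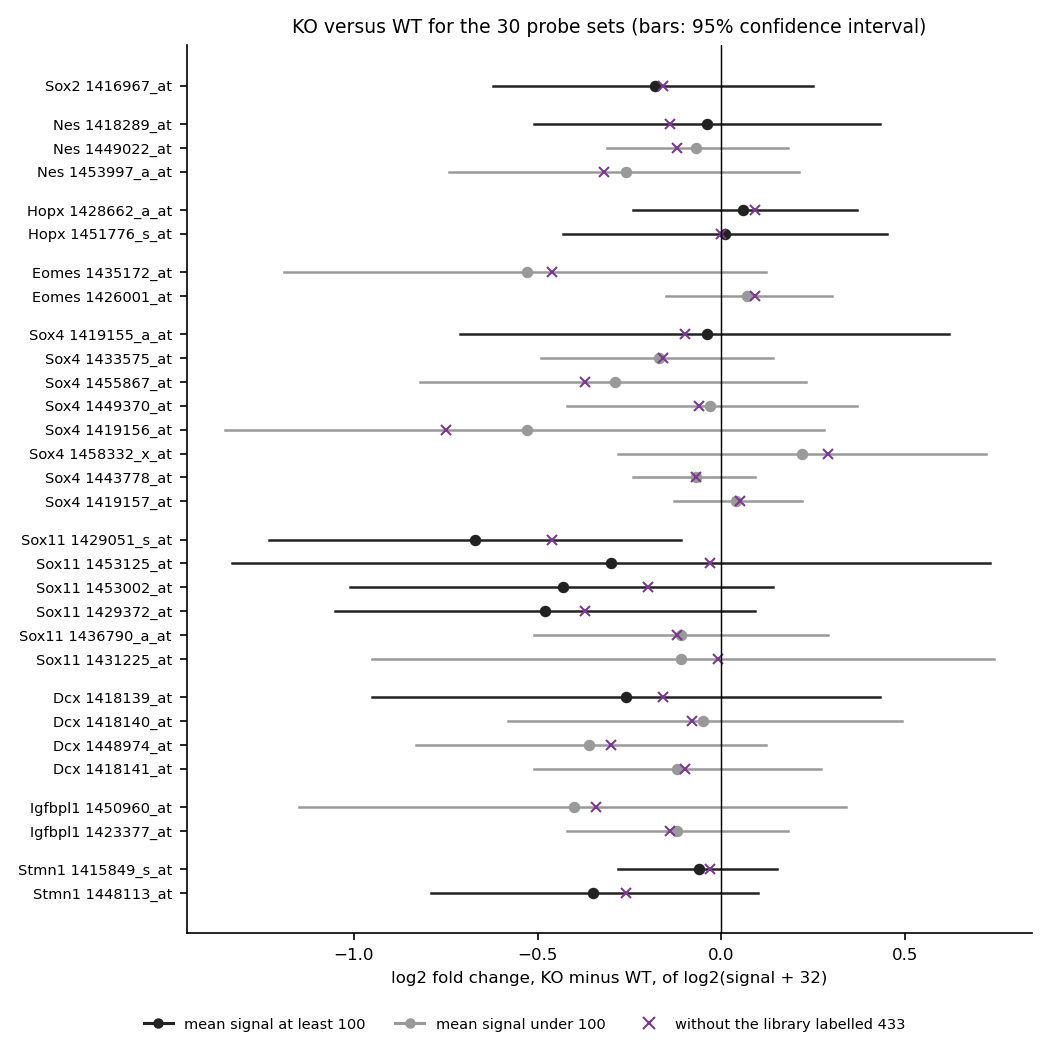
Log2 fold change (KO minus WT, of log2(signal + 32)) of each of the 30 probe sets with its 95% confidence interval from limma, by gene. Crosses give the value without the library labelled 433. All intervals but that of Sox11 1429051_s_at include 0, and most points lie to the left of 0.

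The brightest probe sets of the genes taken as stem cell markers, Sox2, Nes and Hopx, differed little between the genotypes. Sox2, an HMG-box factor that maintains neural stem cells, had a signal of 311 to 848 in the WT arrays, with a median of 515, and 294 to 751 in the KO arrays, with a median of 431. The groups overlapped over nearly their whole range, and 1 KO array lay below the lowest WT array. The log2 fold change was -0.18 (SE 0.21, 95% confidence interval -0.62 to 0.25). Nes encodes nestin, the intermediate filament of neural stem cells. Its brightest probe set, 1418289_at, was at 76.3 to 191 in the WT arrays, with a median of 134, and 77 to 227 in the KO arrays, with a median of 115, and its log2 fold change was -0.04 (SE 0.22, interval -0.51 to 0.43). Hopx, a small homeodomain protein found in quiescent stem cells of the dentate gyrus, was at 758 to 1530 in the WT arrays, with a median of 1260, and 1045 to 1488 in the KO arrays, with a median of 1317. The KO values lay within the WT range, and the log2 fold change was 0.06 (SE 0.15, interval -0.24 to 0.37). The sign for Nes and Hopx depended on the samples used. The values were -0.16 for Sox2, -0.14 for Nes and 0.09 for Hopx without the library labelled 433. A difference of more than 0.62 in either direction lay outside the intervals of all 3 genes' brightest probe sets. The dimmer Nes probe sets had -0.07 (1449022_at) and -0.26 (1453997_a_at, interval -0.74 to 0.21), and Hopx 1451776_s_at had 0.01. Without the library labelled 433 these values were -0.12, -0.32 and 0.

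Eomes, the T-box factor of intermediate progenitors, was dim. Its brighter probe set, 1435172_at, had signals of 61.2 to 206 in the 7 WT arrays, with a median of 84.5. In the 8 KO arrays they ran from 7.62 to 137 with a median of 64.1. The lower end of the KO group reached further down: 4 of 8 KO arrays lay below the lowest WT array, while the others lay within the WT range. The log2 fold change was -0.53 (SE 0.31, interval -1.19 to 0.12, unadjusted p = 0.104 and adjusted p = 1 from limma). It was -0.46 without the library labelled 433. In the array series described below it was -0.45 in the larger and -0.67 in the smaller. The second probe set, 1426001_at, did not exceed a signal of 19 on any unmarked array.

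Sox11 gave the one unadjusted call. This SoxC factor is switched on as progenitors become neurons and drives genes of the immature neuron, Dcx among them. Its brightest probe set, 1429051_s_at, had signals of 1360, 1879, 2011, 2553, 2646, 2905 and 3142 in WT. In KO it had signals of 476, 1292, 1375, 1497, 1610, 1622, 1992 and 2522. The groups overlapped. On the normalized log2 scale 3 KO arrays lay below the lowest WT array, the third of them by little, and 4 WT arrays lay above the highest KO array. The lowest KO value, 476, was that of the library labelled 433. The WT mean was 2357 ± 630 (SD, n = 7) and the KO mean was 1548 ± 586 (SD, n = 8). The log2 fold change was -0.67 (SE 0.26, interval -1.23 to -0.11). The unadjusted p from limma was 0.0212 and an exact two-sided permutation test over all 6435 assignments of the arrays gave p = 0.0256. The adjusted p over all probe sets was 1, and it was at least 0.993 under every alternative run. Without the library labelled 433 the log2 fold change was -0.46 (interval -0.85 to -0.06, unadjusted p = 0.0261), and with the CA13-marked array of 433 in its place it was -0.40 (unadjusted p = 0.0418).

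The 2 array series that the labels number, a smaller one of 2 KO and 2 WT samples and a larger one of the other unmarked arrays, gave the same sign for Sox11 1429051_s_at. Its log2 fold change was -0.75 in the larger series (unadjusted p = 0.0223) and -0.37 in the smaller (unadjusted p = 0.176). The difference between the series was tested for all probe sets, and the smallest adjusted p over the 30 was 0.975. With the Gapdh ratio as a covariate the value was -0.63 (unadjusted p = 0.0266).

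The other 5 Sox11 probe sets also had negative values, between -0.48 and -0.11, none with an unadjusted p under 0.05. They lay between -0.37 and -0.01 without the library labelled 433, with 1453002_at going from -0.43 to -0.20 and 1431225_at from -0.11 to -0.01. With the Gapdh ratio as a covariate 1431225_at had 0.03. In the smaller array series the sign turned for 1453125_at (0.61), 1453002_at (0.18), 1429372_at (0.29) and 1436790_a_at (0.11), while 1431225_at had -0.21. The probe sets did not follow each other across the arrays. Over the 14 unmarked arrays other than the library labelled 433, pairs of the 6 probe sets had Pearson correlations from -0.80 to 0.76. The second brightest, 1453125_at, ran from 287 to 3890 and correlated with the brightest at -0.53 and with the Gapdh ratio at 0.76, where the brightest had -0.28. Its log2 fold change of -0.30 became -0.03 without the library labelled 433. The brightest probe set carries the suffix _s, used on this array for probes that can match more than 1 transcript. The part of RNA quality in the disagreement was not tested.

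**Figure D2:**
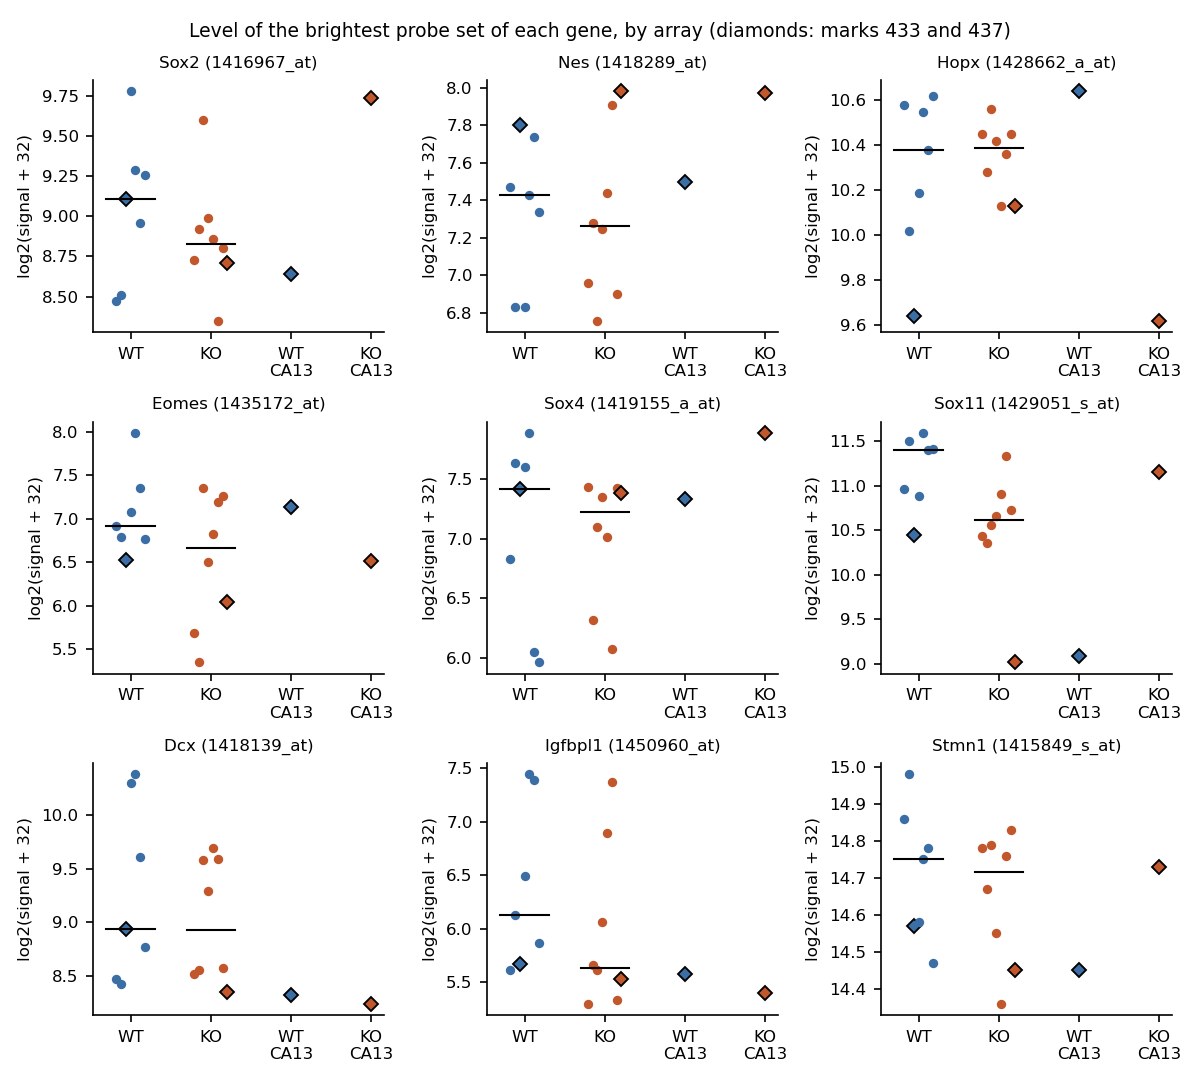
Level of the brightest probe set of each gene, as log2(signal + 32) after quantile normalization over the 17 arrays, in each array. Bars are medians of the unmarked groups and diamonds are the arrays of 433 and 437. Sox11 lay between 10.45 and 11.59 in WT and reached down to 9.02 in KO, in the library labelled 433, while the other genes overlapped more widely.

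Sox4, the second SoxC factor, is read by 8 probe sets, of which only the brightest had a mean signal of at least 100. The brightest, 1419155_a_at, was at 34.8 to 188 in the WT arrays, with a median of 139, and 33.3 to 157 in the KO arrays, with a median of 117. Its log2 fold change was -0.04 (SE 0.32, interval -0.71 to 0.62), and the sign turned in some alternatives. It was -0.10 without the library labelled 433. The 8 probe sets ranged from -0.53 to 0.22. At the lower end was 1419156_at, with -0.53 (unadjusted p = 0.187), or -0.75 (unadjusted p = 0.0468, adjusted p = 1 from limma) without the library labelled 433. Its signal was 3.59 to 211 in WT and 9.49 to 162 in KO, and a log2 fold change of so dim a probe set depends on the 32 units added before the logarithm. Both SoxC genes overlapped between the genotypes.

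Dcx, the microtubule-associated protein of migrating neuroblasts, differed far more between arrays than between genotypes. Its brightest probe set, 1418139_at, had signals of 304, 310, 421, 453, 742, 1255 and 1345 in WT and of 296, 329, 334, 361, 602, 739, 758 and 837 in KO. The 7 highest unmarked arrays, from 602 upward, were KO 384, 386, 390 and 391 and WT 385, 392 and 393, and no other unmarked array exceeded 453. Neither labels nor methods say what these numbers stand for. The log2 fold change was -0.26 (SE 0.33, interval -0.95 to 0.43, unadjusted p = 0.444 from limma), with the SD of the log2 level at 0.84 in WT and 0.58 in KO. The value was -0.16 without the library labelled 433. The other 3 Dcx probe sets were dimmer, with values of -0.36 to -0.05, and -0.30 to -0.08 without that library.

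Igfbpl1, a secreted relative of the insulin-like growth factor binding proteins that marks newborn neurons, had a similar order of arrays. Its brighter probe set, 1450960_at, was at 14.6 to 146 in the WT arrays, with a median of 39.3, and 6.63 to 129 in the KO arrays, with a median of 16.8. The 4 arrays of the smaller series, of both genotypes, held the highest values, 77 to 146, and the 11 others lay between 7 and 54. The log2 fold change was -0.40 (SE 0.35, interval -1.15 to 0.34, unadjusted p = 0.272 from limma). With the array series as a block it was -0.35 (unadjusted p = 0.0483 from limma). Of 25 alternatives, this was the only 1 with an unadjusted p under 0.05. The dimmer Igfbpl1 probe set, 1423377_at, had -0.12 (SE 0.14, interval -0.42 to 0.18), and -0.14 without the library labelled 433. Stmn1, stathmin, binds tubulin dimers and is not limited to newborn neurons. Its signal was 20473 to 41317 in the WT arrays, with a median of 25314, and 16678 to 31089 in the KO arrays, with a median of 26185. Its log2 fold change was -0.06 (SE 0.10, interval -0.28 to 0.15), and the dimmer probe set 1448113_at had -0.35 (SE 0.21, interval -0.79 to 0.10). Without the library labelled 433 the log2 fold change was -0.34 for Igfbpl1 1450960_at, -0.03 for the brighter Stmn1 probe set and -0.26 for the dimmer.

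Some of the genes were correlated across arrays and others were not. Over the 14 unmarked arrays other than the library labelled 433, the 36 pairs of the 9 genes had Pearson correlations from -0.52 (Sox4 with Nes) to 0.74 (Dcx with Igfbpl1). The next highest were 0.69 for Sox11 with Igfbpl1, 0.65 for Sox11 with Eomes, 0.62 for Dcx with Eomes, 0.57 for Eomes with Igfbpl1 and for Dcx with Sox2, and 0.52 for Igfbpl1 with Nes. These are descriptions over arrays that share 2 series. In the 4 arrays of the smaller series the Sox11 signal was 1992 to 3142 and that of Eomes 73 to 206, and in the 11 others they were 476 to 2905 and 8 to 137. Most of the values were lower within the 10 arrays of the larger series: 0.62 for Dcx with Igfbpl1, 0.47 for Sox11 with Igfbpl1, 0.44 for Sox11 with Eomes, 0.41 for Dcx with Eomes, 0.24 for Eomes with Igfbpl1 and -0.15 for Igfbpl1 with Nes. The exception was Dcx with Sox2, the highest pair there at 0.89. Dcx with Sox11 had 0.31 over 14 arrays and -0.13 within the larger series.

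**Figure D3:**
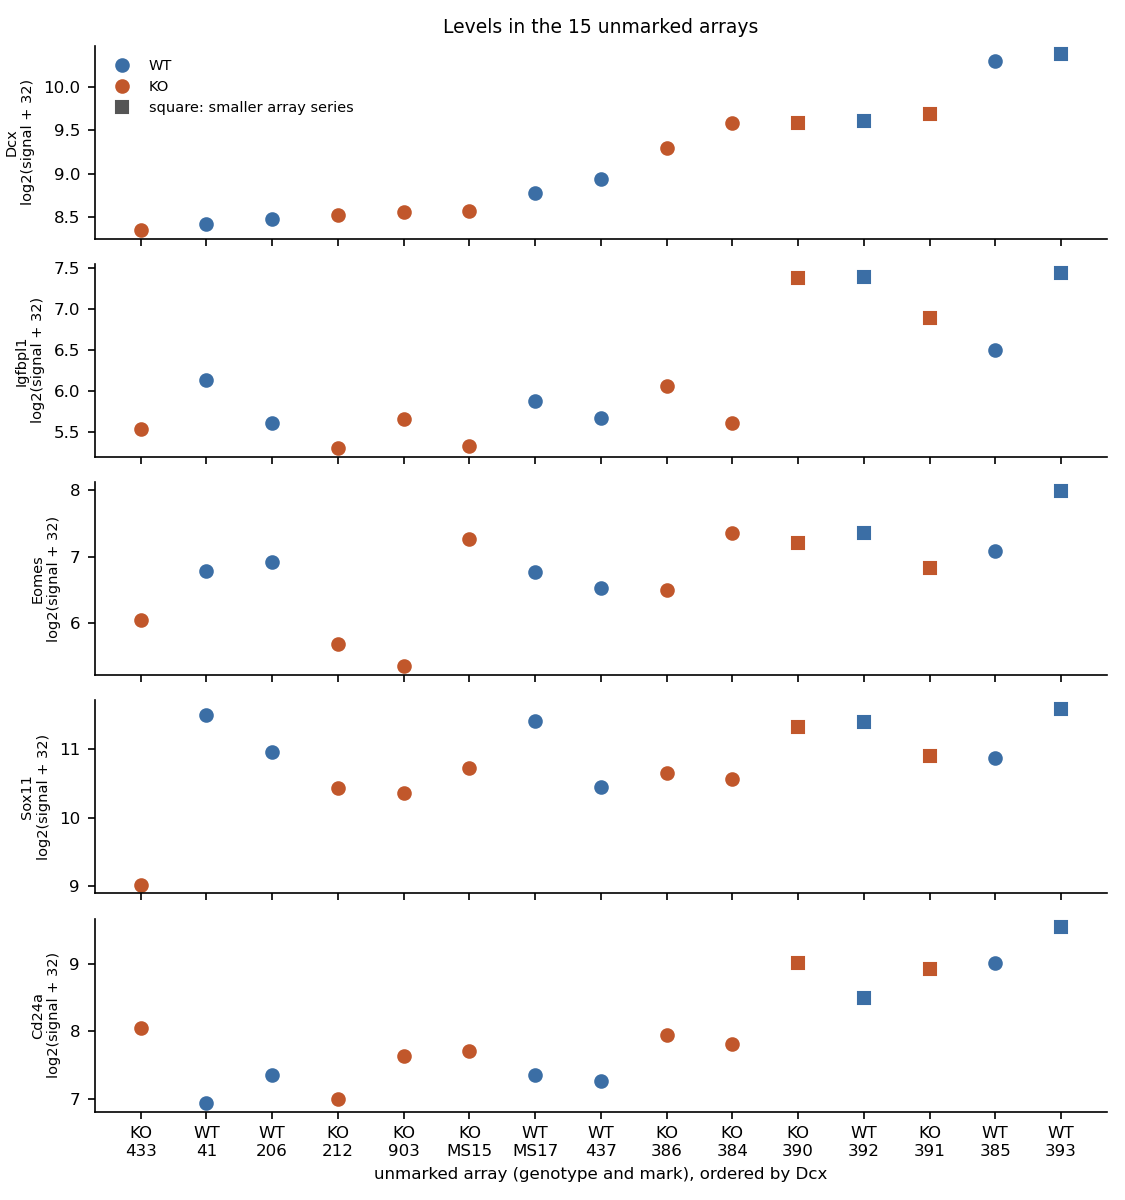
Levels, as log2(signal + 32), of Dcx, Igfbpl1, Eomes, Sox11 and Cd24a in the 15 unmarked arrays, ordered by Dcx. The 7 arrays highest in Dcx hold 4 KO and 3 WT samples, and Igfbpl1 was highest in the 4 arrays of the smaller series (squares).

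For each gene the 3 most similar genes were sought over the 14 arrays among 11285 genes with a mean level of at least that of a signal of 100. Closest to Dcx was Cd24a, a surface glycoprotein of neuroblasts and immature neurons, with a Pearson correlation of 0.91 (0.87 within the larger series). The Cd24a signal was 334 to 720 in the smaller series and 89 to 483 in the other unmarked arrays. Next were Cdt1, which licenses replication origins, and Fkbp9, an endoplasmic reticulum prolyl isomerase, both with 0.89. Closest to Eomes was Pbk, a mitotic kinase, with 0.86, followed by Txnip and Hnrnpa1 with 0.80. Closest to Sox11 were Riox2 with 0.91, D630033O11Rik with 0.84 and Hnrnpa1 with 0.81. The nearest genes to Igfbpl1, among them Gfra1 with 0.92, fell to between 0.43 and 0.62 within the larger series. For Sox2, Hopx, Nes, Sox4 and Stmn1 the closest were Cd151 (0.86), AY036118 (0.86), Neurl4 (0.93), Fgfr1op2 (0.82) and Incenp (0.79). With so many genes searched over 14 arrays, the closest match is a high value for each gene.

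Marker levels of cell types and the Gapdh ratio went along with Dcx and, in part, with Igfbpl1 and Eomes. Over the same 14 arrays Dcx correlated at 0.71 with the mean level of astrocyte markers, at 0.58 with that of oligodendrocyte markers, at -0.71 with that of granule neuron markers and at -0.63 with the Gapdh ratio. For Igfbpl1 these values were 0.37, 0.33, -0.65 and -0.55, and for Eomes 0.25, 0.18, -0.63 and -0.36. For Sox11 1429051_s_at they were -0.09, -0.04, -0.35 and -0.28. With the Gapdh ratio Sox4 had 0.45, Stmn1 0.40, Sox2 -0.41, and Nes and Hopx -0.37 each. Sox2 had 0.52 with the astrocyte markers. The part of tissue composition and RNA quality in these levels was not tested.

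Lists of other genes of the same steps had medians close to 0. Of 34 measured stem cell genes, 2 were lower and 0 higher in KO at an unadjusted p under 0.05, and their median log2 fold change was -0.01. The 2 were the receptor Notch2 (-0.64, SE 0.26, unadjusted p = 0.0228) and the inhibitor of bHLH factors Id4 (-0.42, SE 0.19, unadjusted p = 0.0428). A second Notch2 probe set had 0.39. Without the library labelled 433, Notch2 had -0.41 (unadjusted p = 0.0135) and Id4 had -0.31 (unadjusted p = 0.0859). Of 17 intermediate progenitor genes 0 passed in either direction, with a median of -0.02, and without the library labelled 433 Nhlh1, a bHLH factor of newly formed neurons, stood at 0.72 (unadjusted p = 0.0192). Of 43 newborn neuron genes, 1 was lower, St8sia4, which builds the polysialic acid carried by NCAM on immature neurons (-0.57, SE 0.26, unadjusted p = 0.0416), and the list's median was 0. Its second probe set had 0.34. Without the library labelled 433, St8sia4 had an unadjusted p of 0.088, and 3 other genes were lower: Neurod6 (-0.76), which is also on the CA pyramidal list, the growth cone protein Gap43 (-0.58) and Klf7 (-0.33). Of 38 proliferation genes and of 34 genes of niche signals 0 passed, with medians of -0.01 and 0. With all 15 unmarked arrays the mitotic kinesin Kif11 had 0.27, and its other 2 probe sets had 0.02 and 0.05. Tgfb1 had 0.35 there, and its second probe set had the opposite sign, -0.53. The chemokine Cxcl12 had -0.86, and its other 2 probe sets had -0.15 and 0.23. Without the library labelled 433, Kif11 (0.34, unadjusted p = 0.0469), Tgfb1 (0.54, unadjusted p = 0.0169) and Cxcl12 (-0.42, unadjusted p = 0.0226) passed. Over all 18193 genes 278 were higher and 276 lower at this p, or 3.05%, and 327 were higher and 319 lower, or 3.55%, without that library. No gene on these lists passed an adjusted p of 0.05 in limma, and each one named here had an adjusted p of 1.

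**Figure D4:**
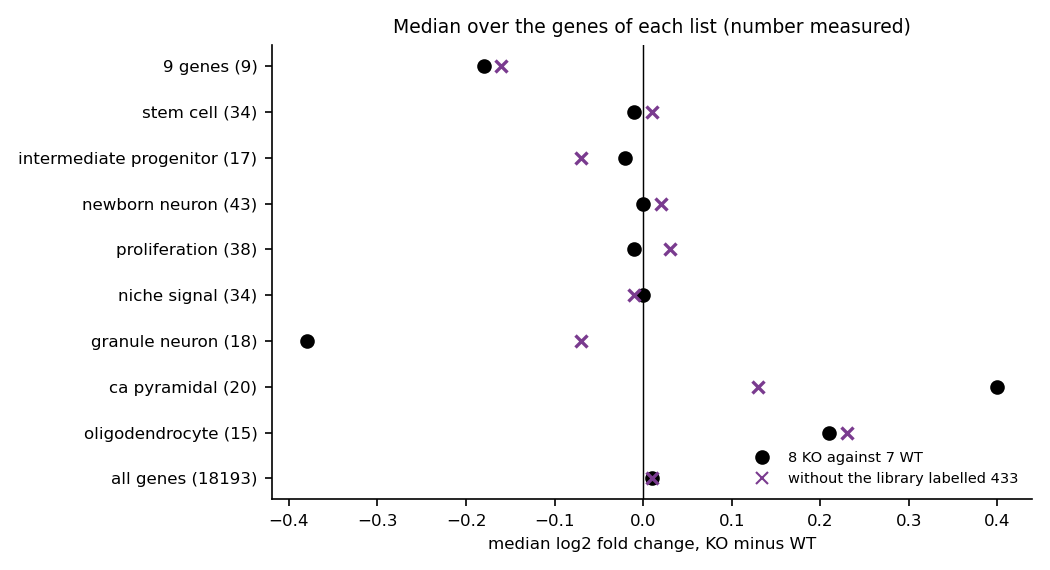
Median log2 fold change, KO minus WT, over the measured genes of each list, with all 15 unmarked arrays (dots) and without the library labelled 433 (crosses). The lists of the neurogenic steps lie within 0.07 of 0, and those of granule and CA neurons move towards 0 without that library.

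Some lists of mature cell type markers had medians further from 0. The 18 granule neuron markers were all negative with a median of -0.38, which became -0.07 without the library labelled 433. The CA pyramidal markers had a median of 0.40, and 0.13 without it. The oligodendrocyte markers had a median of 0.21, with 5 of 15 negative, and 0.23 without it. Their mean level was 8.26 to 9.24 in WT and 8.62 to 9.45 in KO. Cnp (0.66, unadjusted p = 0.0249) and Cldn11 (0.57, unadjusted p = 0.0461), both myelin genes, were higher in KO at that p, with adjusted p = 1 in limma, and had 0.70 and 0.63 without that library. In the smaller array series the value was -0.12 for Cnp and 0.07 for Cldn11. The other 2 Cnp probe sets had 0.19 and 0.25 with all unmarked arrays. Whether these differences have a part in the values of the 9 genes was not tested.

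The library labelled 433 and the CA13-marked WT array of 437, both of CA profile, showed the 9 genes beside arrays of granule profile with the same mark. For the mark 433, the array with the granule profile had a Sox11 1429051_s_at signal of 2137 and that with the CA profile had 476. For 437 the granule-profile array had 1360 and the CA-profile array 492. The difference, CA profile minus granule profile, was -2.13 in 433 and -1.35 in 437 on the log2 scale, larger than the KO-WT difference. Of the 30 probe sets, 4 lay below all 14 other unmarked arrays in both CA-profile arrays, against 4.55% of all probe sets. They were 3 of Sox11 (1429051_s_at, 1453002_at and 1429372_at) and the brightest of Dcx. For Dcx the CA-profile arrays had 296 and 281, and the CA13-marked KO array, of granule profile, also had 296. None of the 30 lay above those 14 arrays in both, against 5.57% of all probe sets. By their brightest probe sets, Sox2, Nes and Hopx lay above the lowest of those 14 arrays in both CA-profile arrays. In the library labelled 433 and the CA13-marked WT array, Sox2 had 381 and 354, Nes 227 and 153, and Hopx 1045 and 1510. Which cells gave these signals was not tested.

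**Figure D5:**
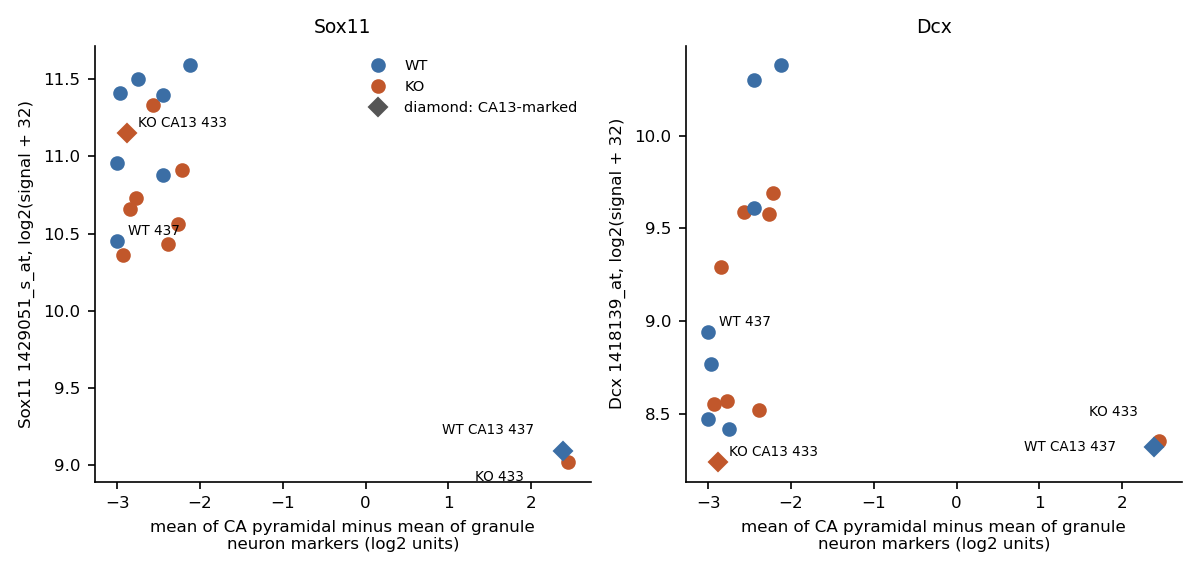
Levels of Sox11 and Dcx, as log2(signal + 32), in the 17 arrays against the mean level of CA pyramidal markers minus that of granule neuron markers. The library labelled 433 and the CA13-marked array of 437 lie at 2.45 and 2.38, the 15 others between -3.00 and -2.12.

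Between the 2 CA13-marked arrays, KO minus WT was 2.06 for Sox11, 1.10 for Sox2, 0.54 for Sox4 and 0.47 for Nes on the log2 scale. It was 0.27 for Stmn1, -0.08 for Dcx, -0.18 for Igfbpl1, -0.63 for Eomes and -1.02 for Hopx. With 1 array per genotype there is no test, and the difference sets a granule-profile array against a CA-profile array, so genotype and tissue cannot be told apart. Sox11 ran opposite to its direction in the unmarked arrays. The Foxo1 signal was 293 in the CA13-marked KO array and 833 in the WT array.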

How the data were processed

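By the study's methods, RNA of laser-captured dentate gyrus was hybridised to Affymetrix mouse arrays. The library labelled 433 and the CA13-marked WT array of 437 had the CA profile given above. The authors deposited signal intensity values, 1 for each probe set on each array, that are not on a log scale. MAS5 is the tool in the submitters' processing notes and RMA that in the methods, and every array had the same 2% trimmed mean. All 17 columns were used. The table holds no detection calls or scanner values, so a background level is unknown, and the number of arrays limits the precision.

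Of the 45101 probe sets, 64 controls were left out. To each signal 32 was added before log2, the arrays were quantile normalized (15 unmarked arrays for tests, 17 for levels shown across both kinds), and each probe set was tested with limma 3.58.1 (R 4.3.3), genotype being the only term, using eBayes with an intensity trend and Benjamini-Hochberg adjustment over 45037 probe sets. The added 32 makes fold changes of dim probe sets too small. Symbols come from the platform annotation (34945 probe sets with 1 symbol, 932 with several, 9160 with none). A gene in a list stands for its brightest probe set. Probe sets of different genes were not set against each other in level.

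Named genes were every member probe set, up to 4 genes per list with the smallest p, and the 3 genes most correlated with each member. The floor on level in that last search was not part of the rule. Cd24a values, the order of arrays by Dcx and the genes lower without the library labelled 433 were chosen after values were seen. The members and lists were chosen with earlier results of these data known. Alternatives covered pseudocounts of 1 and 128, the deposited scaling alone, a filter on dim probe sets, the array series, the Gapdh ratio, array weights, no trend, the CA13-marked array of 433 in place of the unmarked one and leaving out each sample. The steps were tested on simulated data.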

Additional observations from a re-analysis of the deposited data

Results flagged for a closer look

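In 6 of 60 groups of a probe set and a genotype, 1 array lay apart from the others by Dixon's criterion, which chance alone meets in about 1 in 20 groups. Levels are log2(signal + 32). For Sox11 1429051_s_at the library labelled 433 lay at 9.02 in KO, with the nearest KO array at 10.37. For Sox11 1436790_a_at the WT array 392 lay at 6.18, with the nearest at 6.87. For Sox4 1455867_at the WT array 41 lay at 5.64, with the nearest at 7.09. For Sox4 1419157_at the WT array 392 lay at 5.58, with the nearest at 5.31. For Dcx 1418141_at the KO array 384 lay at 6.42, with the nearest at 5.63. For Hopx 1451776_s_at the KO array 390 lay at 6.28, with the nearest at 6.97.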

How the results depend on the processing

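No paired analysis was possible because the labels give the groups no shared replicate numbers. The counts of calls and the fold changes of the brightest probe sets were recomputed under each alternative, except that those of Eomes and Igfbpl1 gave no value under the filter on dim probe sets. List medians and the CA13 differences were recomputed under some alternatives only, and the correlations, the search for similar genes and the arrays that lay apart under none but, for correlations, the larger series. Of 774 recomputed values 743 kept their direction and their side of the threshold or stayed within the set limits. The 30 probe sets of the 9 genes had 0 calls at an adjusted p under 0.05 in every alternative run. The count of all probe sets called, 6, was 3 in the larger array series alone and 0 in the smaller, and 3 (without WT 437) to 8 (without WT MS17) when single samples were left out. The count of the 30 at an unadjusted p under 0.05, 1, was 2 with the array series as a block, 2 in the larger and 0 in the smaller series, and 1 to 3 without single samples (3 without WT 41, 2 without KO 433, WT 437 or WT 392). Sox11 1429051_s_at stayed between -0.79 and -0.37 and had an unadjusted p under 0.05 in 25 of 26 settings, the smaller series being the exception. Most of these settings share nearly all of their arrays, so they are not separate tests. Signs turned for Sox4 (0.08 in the larger series, 0.02 with the CA13-marked array of 433, -0.22 to 0.10 without single samples), Hopx (-0.22 in the smaller series, 0.00 with the CA13-marked array, -0.04 to 0.12 without single samples), Nes (0.10 in the smaller series, -0.14 to 0.04 without single samples), Cnp (-0.12 in the smaller series) and Cxcl12 (0.05 there, -0.86 in all). The median of the granule list moved from -0.38 to -0.07 without the library labelled 433 and to -0.06 with the CA13-marked array in its place. The smaller series holds fewer samples, and the cause of the other moves was not tested.

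The deposited signals give no background level, so a dim probe set, such as both of Eomes and Igfbpl1 and most of Sox4, cannot be called absent. With 15 arrays the standard error of the brightest probe sets was 0.10 to 0.35, so small differences were not detectable. Scanner values were not used here.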
